A study of Rattus norvegicus with 12 samples.

Results

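Immediate early genes are transcribed within minutes of a stimulus, without new protein synthesis, when kinases of the ERK family, calcium signals or serum response factor act on promoters that are already poised. Fos, Junb, Egr1, Egr2 and Klf2 encode transcription factors, Arc encodes a synaptic protein of active neurons, Ier5 encodes a regulator of heat shock factor, and Dusp6 encodes a phosphatase that switches ERK off. Some of them also have steady roles: Egr2 drives myelination in Schwann cells, and Klf2 is kept on in blood vessel endothelium by flow.

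These 8 genes were read on 12 Affymetrix rat arrays, among 14217 genes with a symbol. Members were all probe sets whose only annotated symbol is 1 of the 8 names, which gave 18 probe sets. Each gene is represented by its brightest probe set, and the other 10 are given where they bear on a result. Of these 10, 6 passed the filter on dim probe sets in at least 1 tissue.

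Male Wistar rats gave 3 tissues: cerebellum, spinal cord, and the right and left sciatic nerves. The acrylamide group received 30 mg/kg acrylamide daily by gavage, and the control group received the vehicle, called saline in most labels and solvent in another. Each group had 2 arrays per tissue, and 2 rats were pooled for each array, so the spread between arrays is that between pools. Dosing began at 25 days of age by one label and at 3 weeks by another. The series text gives 21 days of daily dosing, whereas a sample label gives collection 21 days after treatment. The interval from the last dose to collection is therefore not settled, and the time from death to freezing is not given in the sources used here.

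Signals are in arbitrary units on a linear scale, and differences are of log2(signal + 16) with the standard error from limma, which is fitted over all probe sets. A call means a Benjamini-Hochberg adjusted p under 0.05 over all probe sets tested in that comparison. A probe set was tested in a tissue where its mean signal passed 112, and 7 of the 8 genes passed in all 3 tissues. Egr2 did not pass in the cerebellum. In bulk tissue, fewer cells of a type and less RNA per cell cannot be told apart.

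Marker genes stood with the tissue labels, with some admixture. Summed over 5 granule neuron genes, the signal was 41346 to 44610.1 in the cerebellum, 2242 to 2433 in the cord and 2437 to 9118 in the nerve. Over 7 Schwann cell genes it was 98878 to 124137 in the nerve, 39038 to 52297 in the cord and 3110 to 3291 in the cerebellum. Over 6 skeletal muscle genes, saline replicate 1 of the cord had 37932, against 4083 to 5552 on the other cord arrays, and acrylamide replicate 2 of the nerve had 20045, against 3147 to 7028 on the other nerve arrays. Over 5 pan-neuronal genes, the replicate 1 nerve arrays had 8532 (saline) and 10662 (acrylamide), and the replicate 2 nerve arrays 1480 and 1175.

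The promoters of Egr1 and Egr2 are shown because these relatives carry the same element at the same place, while their levels across the tissues were far apart. Each stretch is 75 bases long and ends 51 bases before the start of the gene (RefSeq, build GRCr8), at chr18:26736953-26737027 on the plus strand for Egr1 and chr20:21054492-21054566 on the minus strand for Egr2. Capitals mark CArG boxes, which serum response factor binds, and the core TGACG of the cAMP response element, which here lies on the opposite strand and reads CGTCA.
Egr1: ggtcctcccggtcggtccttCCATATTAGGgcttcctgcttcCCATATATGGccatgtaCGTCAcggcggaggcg
Egr2: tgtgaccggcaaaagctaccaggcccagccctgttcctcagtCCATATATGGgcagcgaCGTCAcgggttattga
Both promoters hold the same CArG box with its first base 83 bases before the start, and the same TGACG core with its first base 66 bases before it. Egr1 has a further CArG box at 105 bases and a further TGACG core at 135 bases, outside the stretch shown. Junb also holds a TGACG core, at 155 bases, so that 3 of the 5 promoters searched have this core. Over 250 bases before the start and on both strands, a CArG box was found in 1.5% and a TGACG core in 18.2% of 33469 promoters. Promoters of Junb, Ier5 and Dusp6 held no CArG box in this window, and those of Fos, Arc and Klf2 were not analysed here. The full element TGACGTCA, the AP-1 site TGANTCA, the EGR site GCGNGGGCG and the MEF2 site had no match in the 5 promoters searched, against 1.59%, 6.34%, 4.29% and 2.96% of all. The TATA box TATAAA was found in those of Junb and Ier5, against 12.9% of all. A match is a run of letters and does not show that a factor binds.

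Levels were first compared between tissues over all 12 arrays, with saline and acrylamide weighted equally. The sciatic nerve had the highest mean signal for 6 of the 8 genes (Egr1, Egr2, Junb, Klf2, Ier5 and Dusp6), and the cerebellum for Fos and Arc. Egr2 was the most tissue-bound. On the 4 cerebellum arrays it had signals of 25.8 and 18.01 (saline replicates 1 and 2) and 31.2 and 15.6 (acrylamide). On the cord arrays, in the same order, it had 808 and 1117, then 639.7 and 459, and on the nerve arrays 3237 and 4832, then 4071 and 4439.6. The 3 tissues did not overlap. Since all cerebellum arrays lay under the filter signal of 112, the fold is a lower bound against that signal. Egr2 in the nerve was at least 32.1-fold higher than in the cerebellum, and in the cord at least 5.72-fold higher. These bounds were not tested. The limma tests used the measured cerebellum signals, with log2 differences of 6.75 ± 0.19 for the nerve (adjusted p = 6.27e-09) and 4.27 ± 0.19 for the cord (adjusted p = 2.45e-07). The second Egr2 probe set (1398266_a_at) had mean signals of 25.4, 96.0 and 392 in the cerebellum, cord and nerve.

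**Figure D1:**
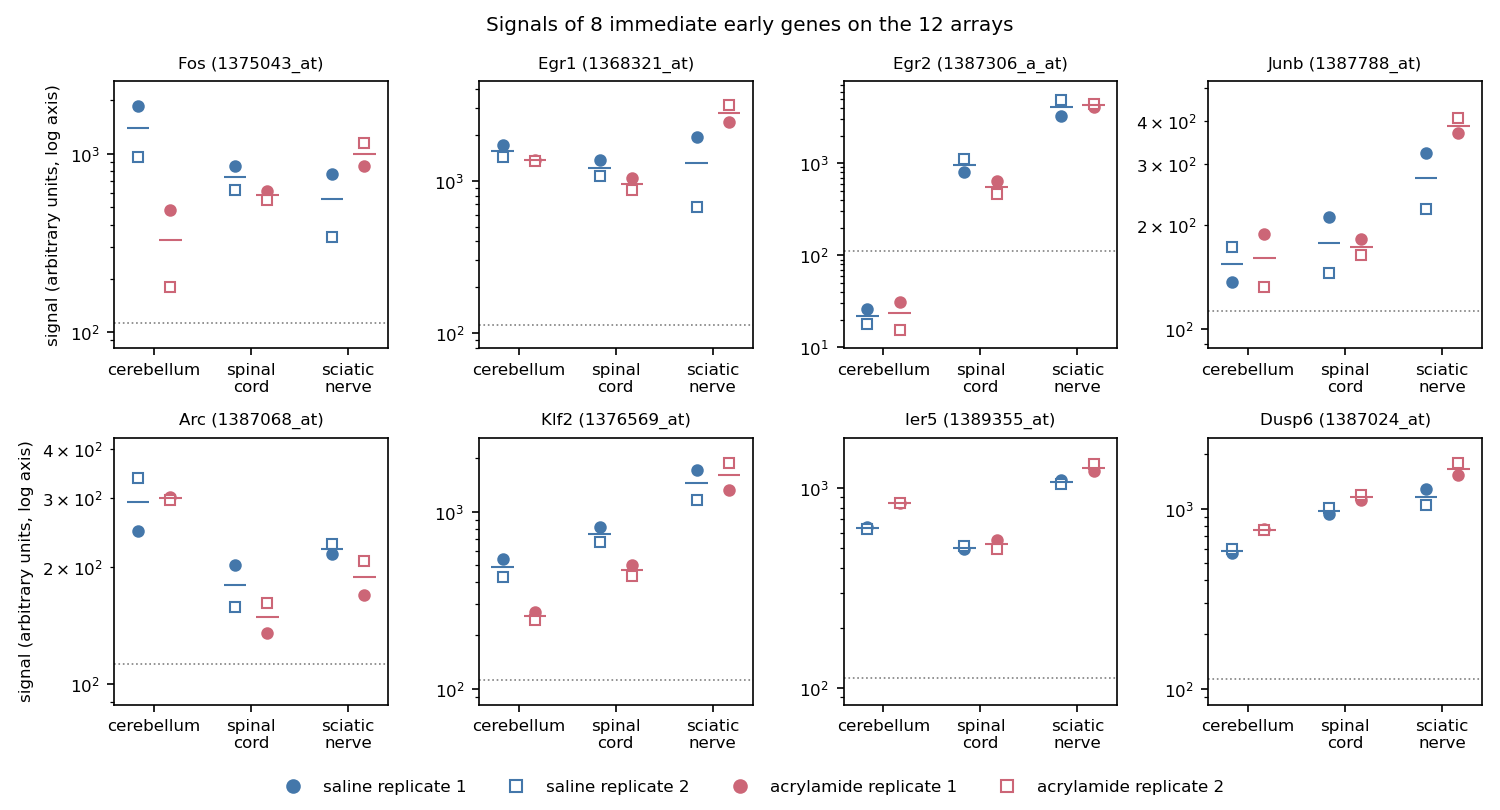
Signal of each of the 8 genes on each array (vertical axis, arbitrary units, log scale) by tissue, with saline in blue and acrylamide in red, replicate 1 filled and replicate 2 open, bars at the means of 2 arrays and a dotted line at the filter signal of 112. Egr2 lies under that line on all 4 cerebellum arrays and between 3237 and 4832 in the nerve, and Fos has its widest range in the cerebellum, from 179 to 1840.

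Klf2 and Dusp6 followed the same order as Egr2, cerebellum below cord below nerve, over a narrower range. Klf2 averaged 371 ± 139.5 (SD, n = 4) in the cerebellum, 606 ± 176 in the cord and 1527 ± 336 in the nerve. Its log2 difference was 0.71 ± 0.16 between cord and cerebellum (adjusted p = 0.00337) and 1.33 ± 0.16 between nerve and cord (adjusted p = 6.12e-05). Another probe set annotated Klf2, 1394068_x_at, did not separate nerve from cord (means 169 and 166, difference 0.01 ± 0.19, adjusted p = 0.961). The summed signal of 9 endothelial genes had the same order, 4063 to 4543 in the cerebellum, 7181 to 7534 in the cord and 13893 to 16480.2 in the nerve; its part in the order of Klf2 was not tested. Dusp6 averaged 673 ± 106, 1061 ± 114 and 1416 ± 321, with differences of 0.65 ± 0.08 (adjusted p = 0.000102) and 0.39 ± 0.08 (adjusted p = 0.00211).

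Ier5 and Arc were lowest in the cord. Ier5 averaged 739.8 ± 122 (SD, n = 4) in the cerebellum, 515 ± 25.9 in the cord and 1169 ± 122.5 in the nerve, with a difference of 1.15 ± 0.06 between nerve and cord (adjusted p = 5.29e-07) and of -0.50 ± 0.06 between cord and cerebellum (adjusted p = 0.000116). Arc averaged 296 ± 37.1, 164 ± 27.7 and 205 ± 25.2 in the same order, and was lower by 0.80 ± 0.13 in the cord than in the cerebellum (log2 difference -0.80, adjusted p = 0.000594). Between nerve and cord, neighbours in its order, Arc did not pass (0.30 ± 0.13, adjusted p = 0.0683). In the nerve, Arc had signals of 216 and 228 on the saline arrays and of 169.6 and 206 on the acrylamide arrays. The nerve replicate 2 arrays, with the low pan-neuronal sums given above, had the higher Arc signal in each group. The part of neuronal RNA in the Arc signal of the nerve was not tested.

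Junb was dim, with means of 157 ± 27.2 and 175 ± 28.2 (SD, n = 4) in the cerebellum and cord, which did not differ beyond their spread (0.14 ± 0.17, adjusted p = 0.48), and of 331 ± 79.6 in the nerve (0.84 ± 0.17 above the cord, adjusted p = 0.00182). Egr1 averaged 1469.9 ± 166, 1089 ± 208 and 2050 ± 1050 (cerebellum, cord, nerve). Of its neighbours in that order, nerve and cerebellum did not pass (0.28 ± 0.28, adjusted p = 0.37), nor did cerebellum and cord (-0.44 ± 0.28 for cord minus cerebellum, adjusted p = 0.185). These standard errors rest on 1 spread shared by all 6 groups, which includes the wide range of Egr1 in the nerve (669 to 3169). The signals were 1354 to 1714 on the cerebellum arrays and 869 to 1371 on the cord arrays. Egr1 was higher in the nerve than in the cord (0.72 ± 0.28, adjusted p = 0.041). This difference lay mainly in the acrylamide arrays, with mean Egr1 signals of 1366, 957 and 2793 (cerebellum, cord, nerve). On the saline arrays the means were 1574, 1221 and 1306, so the nerve was not the highest there. Fos averaged 865 ± 725, 663 ± 131 and 777 ± 330.3 and passed in none of the pairs of tissues (adjusted p = 0.659 to 0.907). In all, 5 of 8 genes were called between cord and cerebellum (3 higher in the cord), 6 of 8 between nerve and cord (all higher in the nerve) and 6 of 8 between nerve and cerebellum (5 higher in the nerve). Of all probe sets tested, 66.8%, 70.3% and 78.6% were called in these comparisons, so the shares of the 8 genes lay near the background. With saline arrays alone, 3 genes were called between nerve and cord.

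The effect of acrylamide was then compared with saline within the cerebellum. Fos and Klf2 had lower signals after acrylamide, Ier5 and Dusp6 had higher signals, and Egr1, Junb and Arc were at -0.20, 0.03 and 0.05 on the log2 scale. None of the 7 genes tested was called. Fos had signals of 1840.0 and 959 on the saline arrays and of 482 and 179 on the acrylamide arrays. The groups did not overlap, but each of them spanned a wide range, and the difference was -2.11 ± 0.49 (adjusted p = 1). With each cerebellum array left out, it ran from -2.79 (without acrylamide replicate 1) to -1.44 (without acrylamide replicate 2). Klf2 had signals of 542 and 427 (saline) and 270.2 and 245 (acrylamide), a difference of -0.86 ± 0.23 (adjusted p = 1). Its saline and acrylamide arrays were apart by more than they differed among themselves. Of the other Klf2 probe sets, only 1375248_at passed the filter in the cerebellum, and its groups overlapped (-0.05 ± 0.22). The untested 1386041_a_at, 1394068_x_at and 1386040_at had both acrylamide arrays below both saline arrays. Of the 9 endothelial genes, 6 were higher and 3 lower, with a median difference of 0.06, and 0 had an unadjusted p under 0.05. The part of endothelial RNA in the difference of Klf2 was not tested.

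Ier5 was the steadiest of the genes with higher signals in the cerebellum. It had 644 and 624 on the saline arrays and 845.7 and 845.6 on the acrylamide arrays, a difference of 0.41 ± 0.09 (adjusted p = 1). Dusp6 had 570.1 and 593 (saline) and 769 and 759 (acrylamide), a difference of 0.38 ± 0.12 (adjusted p = 1). A dimmer Dusp6 probe set (1382778_at) had 0.93 ± 0.34, and the remaining one (1377064_at), whose groups overlapped, had 0.09 ± 0.18. Egr1 was near level, with 1714 and 1434 (saline) and 1377 and 1354 (acrylamide). Junb (136 and 173, then 188 and 132) and Arc (247 and 337, then 302 and 297) had overlapping groups.

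Over the 7 genes tested in the cerebellum, 4 differences were above 0 and 3 below, with a median of 0.03, beside a median of -0.0002 over all probe sets tested. Acrylamide arrays lay wholly on 1 side of the saline arrays for 5 of the 7, against 33.7% of all probe sets, and 4 of the 7 had an unadjusted p under 0.05, against 2.75%. Since the genes were chosen with these results known, the shares are a description. Of 8 microglia and macrophage genes, 7 were tested here and all 7 had higher signals after acrylamide (median difference 0.42, none called), with sums of 2010 and 2099 on the saline and 2544 and 2829 on the acrylamide arrays. The part of these cells in the differences of the 7 genes was not tested. Of 18780 probe sets tested, 0% were called in the cerebellum (0 of 18780, with 516 at an unadjusted p under 0.05 in limma).

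**Figure D2:**
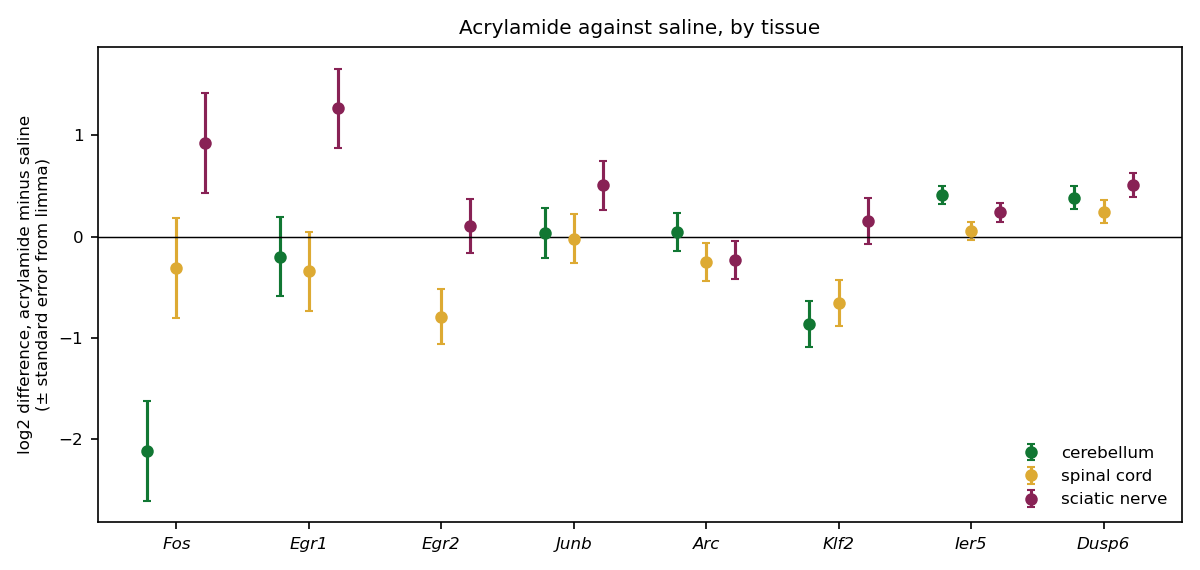
Log2 difference between acrylamide and saline arrays (vertical axis, log2 units; bars are limma standard errors) for the 8 genes, coloured by tissue. Fos is at -2.11 in the cerebellum and 0.92 in the nerve, Dusp6 is above 0 in all 3 tissues, and Egr2 has no point in the cerebellum, where it did not pass the filter.

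In the spinal cord, Klf2 and Egr2 had the differences with the smallest p, and none of the 8 genes was called. Klf2 had signals of 823 and 669 on the saline arrays and 501 and 431 on the acrylamide arrays, a difference of -0.66 ± 0.23 (adjusted p = 1). Its groups did not overlap, as in the cerebellum. The probe set 1386041_a_at had -0.63 ± 0.31, also without overlap, whereas the groups of 1394068_x_at (-0.18 ± 0.26) and 1375248_at (-0.05 ± 0.22) overlapped. The 9 endothelial genes had a median difference of -0.05 there and 0 at an unadjusted p under 0.05, with summed signals of 7534 and 7402 (saline) and 7181 and 7417 (acrylamide). Their part in the cord difference of Klf2 was not tested. Egr2 had 808 and 1117, then 639.7 and 459, a difference of -0.79 ± 0.27 (adjusted p = 1). All 7 Schwann cell genes also had lower signals, with a median difference of -0.18. Of these 7, 3 had an unadjusted p under 0.05, against 2.88% of all probe sets. Their sum was 48426 and 52297 on the saline and 42623 and 39038 on the acrylamide arrays. Of 5 oligodendrocyte genes, 3 were higher and 2 lower in the cord (median difference 0.13). The part of Schwann cell RNA in the difference of Egr2 was not tested.

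The other genes differed little in the cord. Fos had 854 and 625 (saline) and 619.6 and 553 (acrylamide), and Egr1 had 1371 and 1071, then 1045 and 869, so that for each the acrylamide arrays lay just below the saline ones (-0.31 ± 0.49 and -0.34 ± 0.39). Dusp6 had 937 and 1002, then 1112 and 1195, a difference of 0.25 ± 0.12 (adjusted p = 1); its other probe sets had -0.16 ± 0.34 (1382778_at) and -0.09 ± 0.18 (1377064_at). Arc (-0.25 ± 0.19), Junb (-0.02 ± 0.24) and Ier5 (0.06 ± 0.09) had overlapping groups. The direction of Junb turned under quantile normalization and median centring. In all, 6 of the 8 differences were below 0, with a median of -0.28 beside 0.004 over all probe sets. The arrays lay on 1 side for 5 of 8 genes, against 33.6%, and 2 of 8 had an unadjusted p under 0.05, against 2.88%. Of 18934 probe sets tested, 0% were called (546 at an unadjusted p under 0.05). Saline replicate 1, the array with the muscle signal, had the highest cord signal for 5 of the 8 genes. Without it, Fos was at -0.09, Egr1 at -0.17, Arc at -0.09, Klf2 at -0.51, Ier5 at 0.04 and Dusp6 at 0.20. Egr2 moved further from 0, to -1.02, and Junb turned to 0.23. Of 8 microglia and macrophage genes, 7 had higher signals after acrylamide in the cord (median difference 0.40, none called), with sums of 4986 and 5189 (saline) and 7386 and 7195 (acrylamide), and their part in the cord differences was not tested.

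In the sciatic nerve, Fos and Egr1 had acrylamide arrays above the saline ones, opposite to the cerebellum and cord. The differences of Egr1 in those other tissues, and of Fos in the cord, were smaller than their standard errors. None of the 8 genes was called, while 1 of 18161 probe sets was (0.00551%). Egr1 had signals of 1943 and 669 on the saline arrays and 2417 and 3169 on the acrylamide arrays, a difference of 1.27 ± 0.39 (adjusted p = 0.907). The saline pools were further apart from each other than the lower acrylamide pool was from the higher saline pool. Without saline replicate 1 the difference was 2.02 and Egr1 was called (adjusted p = 0.0216), among 36 probe sets in all against 1 with all arrays. Without saline replicate 2 it was 0.51 (adjusted p = 0.738). Either fit leaves 1 saline nerve array, which is assumed to vary like the other groups. Fos had 768 and 343 (saline) and 856 and 1142 (acrylamide), a difference of 0.92 ± 0.49 (adjusted p = 0.981). Without saline replicate 2 it was 0.36, and without saline replicate 1 it was 1.48 (adjusted p = 0.966 and 0.274).

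Dusp6 had the smallest p of the 8 genes in the nerve. It had signals of 1281 and 1053 on the saline arrays and 1533 and 1797 on the acrylamide arrays, a difference of 0.51 ± 0.12 (adjusted p = 0.78). Its other probe sets had 0.71 ± 0.34 (1382778_at) and 0.20 ± 0.18 (1377064_at), and for each the arrays did not overlap. Ier5 had 1095 and 1048, then 1214 and 1320.0 (0.24 ± 0.09, adjusted p = 0.945), and Junb had 323 and 223, then 369 and 407 (0.50 ± 0.24, adjusted p = 0.967). Arc was the only gene of the 8 with both acrylamide arrays below both saline arrays in the nerve (-0.23 ± 0.19). Egr2 and Klf2 had overlapping groups, at 0.10 ± 0.27 and 0.16 ± 0.23, and both turned direction when single nerve arrays were left out.

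Over the 8 genes in the nerve, 7 differences were above 0, with a median of 0.37 beside 0.0009 over all probe sets. The arrays lay on 1 side for 6 of 8 genes, against 26.2%, and 3 of 8 had an unadjusted p under 0.05, against 5.1%. Acrylamide replicate 2 had the highest nerve signal for 6 of the 8 genes, and saline replicate 2 the lowest for 6. The summed signal of the 6 muscle genes was also highest and lowest on these arrays, with 7028 and 3147 on the saline and 5574 and 20045 on the acrylamide arrays, and all 6 were higher after acrylamide (median difference 1.57); none was called. The microglia and macrophage sum was also lowest on saline replicate 2 (2147, against 3969 to 7769 on the other nerve arrays). The sum of 5 fat cell genes was 28957 on saline replicate 1, the array whose removal brings the Egr1 call, 5016 on saline replicate 2, and 7516 and 10239 on the acrylamide arrays. The part of these cells in the nerve differences was not tested. With both replicate 1 arrays of the nerve left out, an alternative chosen after the data were seen, Egr1 (2.22, adjusted p = 0.00145) and Dusp6 (0.76, adjusted p = 0.0115) were called, among 483 probe sets in all, against 1 with all arrays. That fit takes its spread from the cerebellum and cord alone, and assumes that the nerve varies like them.

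The acrylamide effects were also averaged over the tissues and tested for a difference between them. The model treated all 12 arrays as independent, although tissues may have come from the same rats, so these standard errors carry that limit. Dusp6 was the 1 gene whose acrylamide arrays lay above the saline arrays in all 3 tissues, with a mean difference of 0.38 ± 0.07 (adjusted p = 0.288). Ier5 followed at 0.23 ± 0.05 (adjusted p = 0.463), and Klf2 lay on the other side at -0.45 ± 0.13 (adjusted p = 0.655). The other Dusp6 probe sets overlapped in the cord, with means over the tissues of 0.07 ± 0.10 (1377064_at) and 0.49 ± 0.20 (1382778_at). Of all probe sets tested, 17.1%, 17.7% and 13.3% had both acrylamide arrays above both saline arrays (cerebellum, cord, nerve). The share that did so in all 3 tissues was not counted. None of the 8 was called, and 0.00938% of 21332 probe sets were. With both replicate 1 nerve arrays left out, 2 of the 8 genes and 274 probe sets in all were called in this average. The F test of a difference between tissues called 0% of 21332 probe sets and none of the 8 genes. For Fos, the effect in the cerebellum minus that in the nerve was -3.03 ± 0.70, and for Egr1 it was -1.46 ± 0.55 (adjusted p = 1 for each in the F test).

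The other genes of the pathway were read from 4 lists. Among other immediate early transcription factors, 16 of 17 were on the array and 9 passed the filter in the cerebellum, and 7 of these 9 had lower and 2 higher signals, with a median difference of -0.36. The orphan receptor genes Nr4a3 (-2.42 ± 0.32, adjusted p = 0.494), Nr4a2 (-1.58 ± 0.23, adjusted p = 0.494) and Nr4a1 (-1.20 ± 0.25, adjusted p = 1) had the smallest p. In the cord 7 of 9 were lower and 2 higher (median -0.20), and in the nerve 2 of 11 were lower and 9 higher (median 0.23), where Nr4a3 was at 0.79 ± 0.32 (adjusted p = 0.967). None was called in any tissue. An unadjusted p under 0.05 was found for 3 of 9 in the cerebellum, all of them Nr4a genes, against 2.75% of all probe sets. In the cord it was found for 0 of 9 (2.88% of all), and in the nerve for 1 of 11, Nr4a3 (5.1% of all). The list was chosen with earlier results of these data known, so these shares are a description.

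Of other immediate early effectors, 14, 13 and 13 were tested in the cerebellum, cord and nerve, with medians of -0.15, -0.03 and 0.28. In the cerebellum 9 were lower and 5 higher, including Ier2, a nuclear protein, at -0.88 ± 0.33 and Ier3 at 0.28 ± 0.12. In the nerve 10 were higher, with the kinase gene Plk2 at 0.53 ± 0.14 and Ier3 at 0.37 ± 0.12. Among ERK feedback genes and targets, Spry4, which like Dusp6 restrains the ERK pathway, was at -0.57 ± 0.16 in the cerebellum, where Dusp6 was at 0.38, and at 0.33 ± 0.16 in the nerve; Spry2 was at 0.50 ± 0.17 in the nerve. In this list 6 of 8 were lower in the cerebellum, 4 of 8 in the cord and 1 of 8 in the nerve, with medians of -0.04, -0.04 and 0.28. Upstream kinases and factors had medians of -0.06, 0.03 and 0.10 over 18, 17 and 16 genes. No gene of these 3 lists was called in any tissue.

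**Figure D3:**
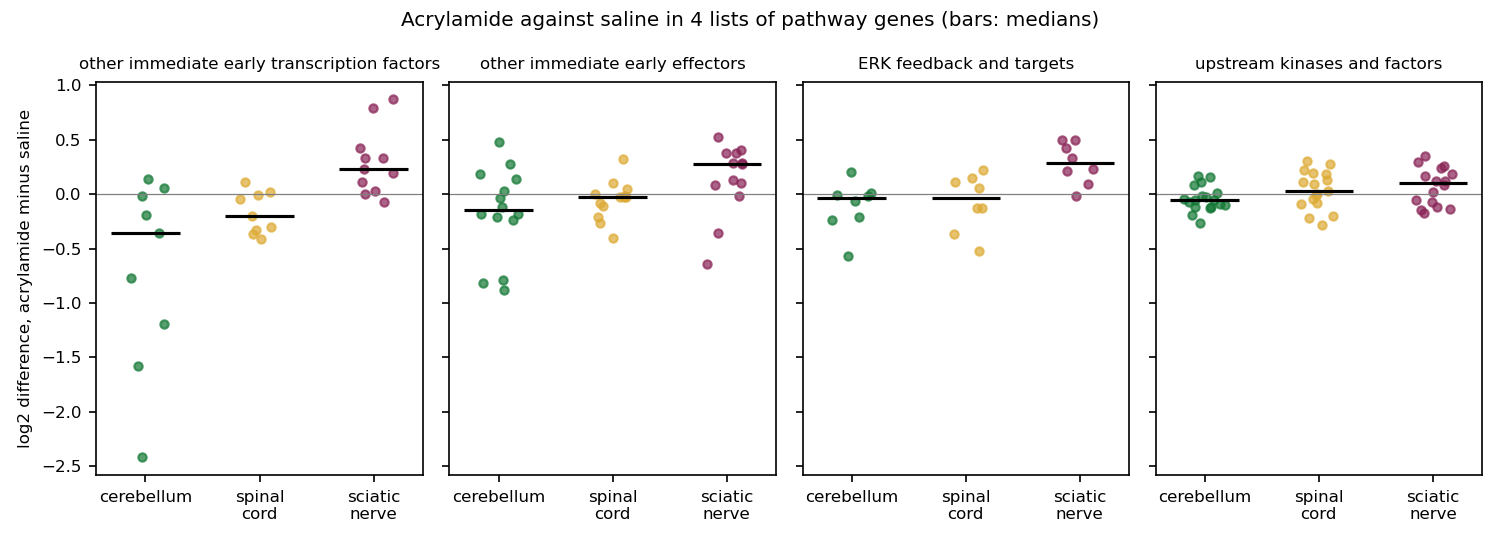
Log2 difference between acrylamide and saline arrays (vertical axis, log2 units) for each tested gene of 4 pathway lists, by tissue, with black bars at the medians. Among the other immediate early transcription factors the medians are -0.36 in the cerebellum, -0.20 in the cord and 0.23 in the nerve, and the lowest point is Nr4a3 at -2.42.

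The 8 genes did not share 1 pattern from array to array. After each tissue mean was subtracted from the log2 values, Pearson's r over the 12 arrays was taken as a measure of likeness, which describes these arrays and includes the treatment. Among 11293 other genes, those most like Fos were Nr4a3 (r = 0.927), the clock gene Per2 (0.919) and Chst14 (0.91). Within the 8, Fos and Klf2 had r = 0.834, Ier5 and Dusp6 had 0.84, and Egr1 and Junb had 0.771, whereas Klf2 and Ier5 had -0.456. Egr2 was most like Cntf (0.958), a neurotrophic factor of Schwann cells, and Ier5 was most like the interferon-induced gene Gbp2 (0.92). The r of Egr2 includes the cerebellum arrays, on which its signals of 15.6 to 31.2 lay under the filter signal. The genes most like Egr1 were Cthrc1, Adamts1 and Bambi (0.963 to 0.949), those most like Dusp6 the lactate transporter gene Slc16a1, Dhrs1 and Serpinb9 (0.957 to 0.937), those most like Klf2 Mlx, Ticam1 and Rab3il1 (0.945 to 0.908), those most like Junb Actn4, Casp8ap2 and Gnl3 (0.919 to 0.898), and those most like Arc Fads2, Hhipl1 and Dhx34 (0.899 to 0.878).

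The probe sets annotated as Klf2 differed among themselves. The brightest, 1376569_at, and 1386041_a_at ran together (r = 0.867), and a cross-hybridizing design, 1394068_x_at, had r = 0.639 with the first. A further one, 1375248_at, had only 0.449 with 1376569_at, but 0.945 with Junb, which made it the nearest to the Junb probe set of 21331 probe sets. Its acrylamide differences were -0.05 ± 0.22 in the cerebellum, -0.05 ± 0.22 in the cord and 0.49 ± 0.22 in the nerve, beside 0.03, -0.02 and 0.50 for Junb and -0.86, -0.66 and 0.16 for the brightest Klf2 probe set. Over the 12 arrays, its log2 value minus that of Junb ranged from -0.02 to 0.42, and its log2 value minus that of 1376569_at from -2.33 to -0.40. This probe set was singled out after its values were seen. The fifth, 1386040_at, had mean signals of 4.04 to 6.28 by tissue and was not tested. Probe sets of other members also differed. For Egr2, 1398266_a_at had r = 0.287 with the brightest. For Dusp6, 1382778_at had 0.738 with the brightest, whereas 1377064_at had 0.35 with it and 0.532 with Junb.

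**Figure D4:**
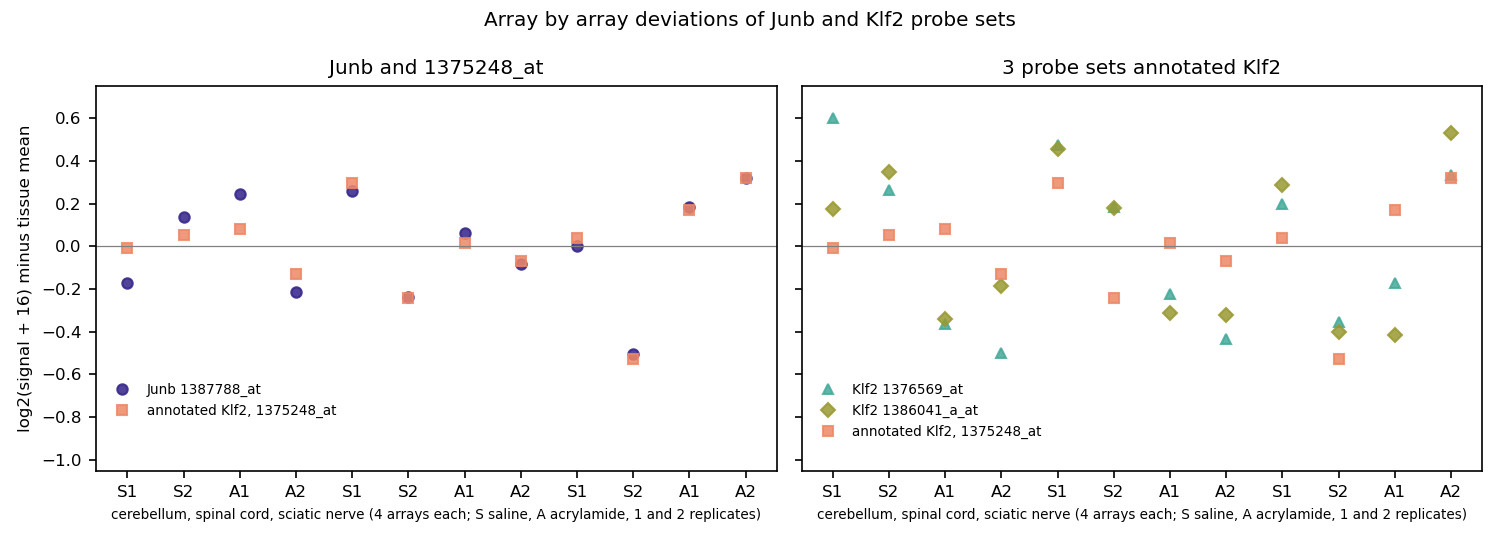
Deviation of log2(signal + 16) from the tissue mean (vertical axis, log2 units) on the 12 arrays, 4 per tissue in the order cerebellum, spinal cord, sciatic nerve (S saline, A acrylamide, 1 and 2 replicate numbers), for Junb and 1375248_at on the left and for 3 probe sets annotated Klf2 on the right. The points of 1375248_at follow those of Junb (r = 0.945) more closely than those of the Klf2 probe set 1376569_at (r = 0.449).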

How the data were processed

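RNA of 12 samples was hybridised to 1-colour Affymetrix arrays. The deposited values are intensity signals on a linear scale, 1 per probe set, from GCOS 1.1, as the submitters' processing notes name it. For the algorithm and the scaling target, the entry is not given in the sources used here. After trimming 2% at each end, the 12 array means ran from 500.124 to 500.151, which is a global scaling; medians lay between 161.8 and 199. Of 31099 probe sets, 57 controls were left out. Probe sets took their symbols from the platform annotation, updated by gene ID through RefSeq (GRCr8): 20826 had 1 symbol, 436 several and 9780 none.

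A limma 3.58.1 model (R 4.3.3, eBayes with an intensity trend) held 1 mean per group on log2(signal + 16), for 21332 probe sets above the 40th percentile of tissue means (112) in at least 1 tissue, with 6 residual and 3.13 prior degrees of freedom; it was tested on simulated data. P-values were two-sided and Benjamini-Hochberg adjusted over all probe sets tested. With the pseudocount, differences of dim genes are understated. Alternatives were other normalizations, pseudocounts, filters, variance models, thresholds, a replicate block and each array left out. Named genes were the 8 members, up to 4 genes of a pathway list with the smallest p, and the 3 nearest by r. The members and lists were chosen with earlier results of these data known. Precision is limited by the number of arrays, with median standard errors of 0.16, 0.161 and 0.157 (cerebellum, cord, nerve).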

Additional observations from a re-analysis of the deposited data

Results flagged for a closer look

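Fos and Egr1 had both acrylamide arrays below both saline arrays in the cerebellum and cord, and above both in the sciatic nerve. Of all probe sets tested, 16.6% (cerebellum) and 15.9% (cord) had both below, and 13.3% (nerve) both above. The share with this order in all 3 tissues was not counted. Some separations were small: the nearest Fos arrays in the cord had 625 (saline) and 619.6 (acrylamide). In the cerebellum, the difference of Egr1 was -0.20 ± 0.39. For Fos the log2 effect in the cerebellum minus that in the nerve was -3.03, and that in the cord minus that in the nerve was -1.23. For Egr1 the same differences were -1.46 and -1.61. The difference between tissues was tested by limma's F test and was not called for either gene (adjusted p = 1). Groups of 2 arrays are too small to test for a sample that stands apart.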

How the results depend on the processing

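No member was called for acrylamide in the cerebellum or cord under any of 25 alternatives each. In the nerve the count stayed at 0 except without single arrays, where it ranged from 0 to 1 (Egr1, without saline replicate 1; 36 of all probe sets called, against 1 with all arrays), and without both replicate 1 arrays, where it was 2 (483 of all). The last also gave 2 for the average of the tissues (274 of all, against 2) and 1 for the difference between tissues (98 of all, against 0). Between tissues, testing for at least a 2-fold difference left 1 (cord against cerebellum), 1 (nerve against cord) and 2 (nerve against cerebellum) genes called, with 1925, 3279 and 5694 of all probe sets. Saline arrays alone left 3 for nerve against cord, with 11701 of all.

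Of 252 alternative values of the 23 differences, 238 kept their direction. The others turned: Junb in the cord was at 0.00047 under quantile normalization and 0.0017 under median centring, Dusp6 in the cord at -0.087 and -0.16 on its other probe sets, and Egr2 in the nerve at -0.12 without both replicate 1 arrays. With each array left out, the range was -0.19 to 0.26 for Junb, -0.16 to 0.26 for Arc in the cerebellum, -0.27 to 0.23 for Junb and -0.014 to 0.13 for Ier5 in the cord, and -0.18 to 0.39 for Egr2 and -0.12 to 0.43 for Klf2 in the nerve. The cause was not tested.

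With the replicate number as a block, 0 members were called in each tissue. Same-numbered arrays deviated together in the nerve (r = 0.417) but not in the cerebellum (0.0607) or cord (-0.0639). Since the correlation was not above 0.1 in all 3 tissues, the numbers were not taken to pair the samples.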
